A study of Homo sapiens with 6 samples.

Results

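The tripartite motif (TRIM) genes were followed in RNA-seq counts of libraries labelled as paclitaxel (PTX)-resistant MDA-MB-231 breast cancer stem-like cells (BCSC). MDA-MB-231 is an established human triple-negative breast cancer line, and the methods of the study describe its BCSC as sorted cells with high aldehyde dehydrogenase activity. In 3 libraries the cells carry a short hairpin RNA against the long non-coding RNA LINC00115 (labelled LINC00115 KD), and 3 libraries are labelled WT. PTX resistance and the BCSC sort are shared by both groups, and the labels do not say whether the WT cells carry a control hairpin. The members are the genes listed under Trim followed by a number, except Trim28, and they number 58 of 22989 genes in the table. The study asked how LINC00115 acts on BCSC properties, and the comparison made here is the difference of each TRIM gene between the KD and the WT libraries.

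TRIM proteins share an N-terminal block of a RING domain, B-box zinc fingers and a coiled coil, and they differ in the domain that follows. The RING domain recruits a ubiquitin-loaded E2 enzyme, so that most members act as E3 ubiquitin ligases, while a few lack the RING. Members that end in a B30.2/SPRY domain include restriction factors and regulators of the antiviral sensors RIG-I, MDA5 and cGAS, and a number of them are induced by interferon. Other classes bind microtubules, chromatin or RNA.

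The libraries held between 36979221 and 38799331 counts, at which 1 count corresponded to 0.0259 to 0.0272 normalized CPM. CPM are counts as a share of the library total, on a scale common to all libraries and here after TMM normalization, which adjusts the totals so that the bulk of genes does not differ. They are not corrected for gene length, so differences are given within a gene, and an order of genes by counts or CPM also reflects their lengths. The chi-square of a pair of libraries over its degrees of freedom, was 3.94 to 7.96 within a group and 224 to 246 between the groups. Of 7 genes usually high in this line, Vim, Cd44, Axl, Lgals1 and Msn stood between 731 and 4590 CPM on average in both groups, S100a4 was called lower (785 ± 34.1 CPM in WT and 341 ± 14.0 CPM in KD, SD, n = 3), and Cav1 stood at 93.1 ± 2.94 and 122 ± 2.29 CPM. Of 9 luminal breast genes, some of them usually low or absent in this line, 7 were tested. At the adjusted p, 5 were higher (71.4%) and 2 lower (28.6%) in KD, beside 36.7% of all genes tested in each direction. Esr1 (29, 26 and 24 counts in WT, 105, 82 and 104 in KD) and Cdh1 (2, 1 and 3 in WT, 22, 30 and 31 in KD) were called higher, and Pgr and Epcam had at most 5 counts in any library. Cdh1 entered the test only through its counts in KD. Gata3 (95.8 ± 4.94 CPM in WT and 53.2 ± 1.25 CPM in KD) and Krt8 (472 ± 5.52 and 752 ± 23.2 CPM) were detected in every library. The labels do not say whether the replicates were separate cultures, so the p-values measure the spread between these libraries. In bulk RNA, fewer cells of a type and less RNA per cell cannot be told apart.

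All 58 TRIM genes had at least 1 count in some library, 32 had at least 100 counts in every library and 17 had at least 1000. Their symbols are written as mouse genes are. Of the 58, 48 equal a human symbol apart from case and 10 do not, namely Trim12a, Trim12c, Trim30a, Trim30b, Trim30c, Trim30d, Trim34a, Trim34b, Trim43a and Trim43c. Trim12 and Trim30 genes are known from rodents, where they lie beside Trim6 and Trim34. The labels give human as the organism, the methods name hg19 and the submitters' processing notes hg38, and how rows with rodent names came about is not given in the sources used here. Rows named for rodent genes held up to 9754 counts in a library (Trim30a), so whether the reads came from human or mouse cells, or were mapped to a mouse genome, is not known here. Every value below is that of a row under its name. Of 77 human protein-coding TRIM symbols in RefSeq, 28 have no namesake among the genes analysed here, among them TRIM4, TRIM22 and TRIM34. Counts of the near-identical Trim12, Trim30, Trim34 and Trim43 copies may be split between copies in ways not known here.

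The TRIM genes together took a larger share of the counts in every KD library than in every WT library. They received 67593, 68235 and 68150 counts in the WT libraries and 97919, 91904 and 94612 counts in the KD libraries. This was 0.181% to 0.182% of a WT library and 0.247% to 0.252% of a KD library. The 16 listed genes known to be induced by interferon gave 23.7% to 25.4% of the TRIM counts in WT and 35.1% to 37.1% in KD. Counts on Trim30a to Trim30d rose from 3827, 3599 and 3893 to 12176, 12280 and 12142.

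Of the 58 genes, 44 had enough counts to be tested. The quasi-likelihood test of edgeR was run on all genes of the table that passed the same filter, with Benjamini-Hochberg adjustment over 13497 genes. At an adjusted p under 0.05 and a fold change over 2, 10 TRIM genes were called higher in KD, against 10.2% of all genes tested called higher (22.7% of the TRIM genes tested). Another 4 were called lower, against 9.98% of all genes (9.09% of the TRIM genes). With the adjusted p alone, 22 TRIM genes were higher (50.0%, against 36.7% of all genes) and 10 were lower (22.7%, against 36.7% of all genes), while 12 did not pass. The 22 and 10 genes were also those whose 3 KD libraries lay wholly above or wholly below the 3 WT libraries, a separation that 37.8% of all genes tested showed upward and 37.8% downward. The median log2 fold change was 0.30 for the TRIM genes tested and −0.01 for all genes tested. Genes with few counts in 1 group enter such a test only through the other group, and 4 of the 44 TRIM genes had under 10 counts in some library. With at least 10 counts required in every library, 1 TRIM gene was called lower and 10 were called higher.

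**Figure D1:**
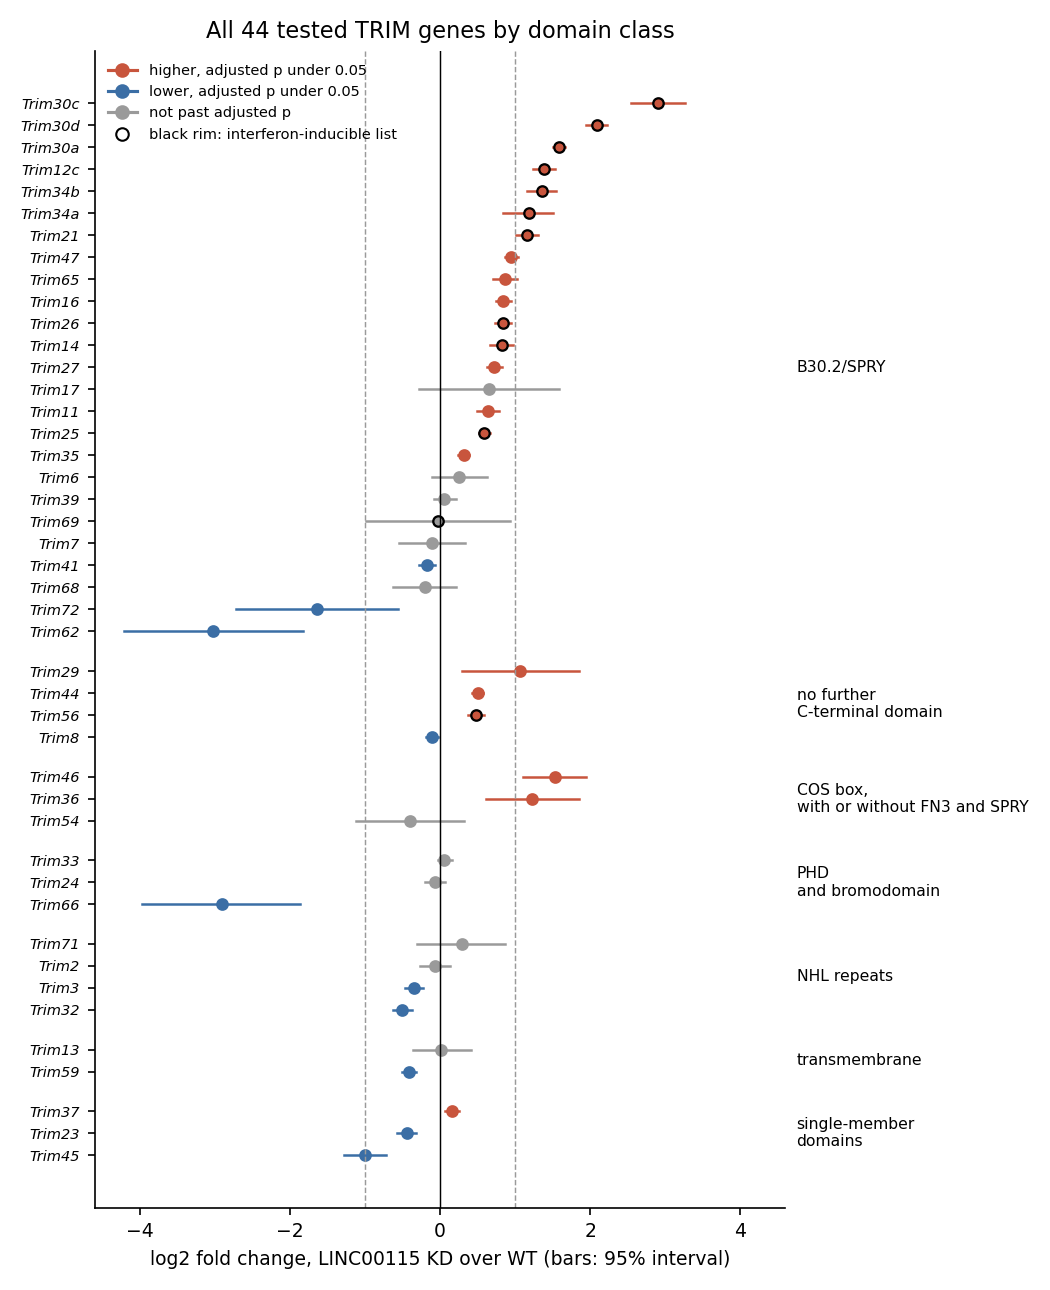
Log2 fold change (KD over WT, horizontal axis) of the 44 tested TRIM genes with 95% intervals, ordered by domain class, with dashed lines at a fold change of 2. Orange points are higher and blue points lower at an adjusted p under 0.05, grey points did not pass, and black rims mark the interferon-inducible list, whose members lie at or right of 0.48 except Trim69 at −0.03.

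Most tested TRIM genes known to be induced by interferon were higher in KD. Of 16 such genes in the table, 12 were tested, and 11 of them passed the adjusted p with higher values in KD and 0 with lower, 7 of them past a fold change of 2 (median log2 fold change 1.17). These are 91.7% past the adjusted p upward and 58.3% called higher, beside 36.7% and 10.2% of all genes tested. Leaving aside the test against a fold change of 1.5, the other settings tested 11 to 16 of the list, with 11 or 12 higher and 0 lower. In the test against 1.5-fold, Trim25 (adjusted p = 0.486), Trim56 and Trim69 did not pass. Outside this list, 11 of 32 tested TRIM genes were higher (34.4%) and 10 lower (31.2%), with a median of 0.04, both shares near the 36.7% of all genes in each direction. The list was written from textbook knowledge with earlier results of these data known, so it is not independent evidence of its direction.

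Trim30a, a rodent gene induced by interferon whose product dampens Toll-like receptor signalling, had 3262, 3095 and 3358 counts in WT and 9743, 9654 and 9754 counts in KD. The groups lay far apart and the KD libraries were nearly alike. Normalized CPM rose from 85.8 ± 3.51 to 257 ± 5.55 (SD, 3 libraries each), which is 1.58 on the log2 scale with a standard error (SE) of 0.04 (adjusted p = 1.26e-27). Its neighbour copy Trim30d had 487, 459 and 473 counts in WT and 2030, 2054 and 1972 in KD, a log2 fold change of 2.09 (SE 0.07). Trim30c had fewer counts, 78, 45 and 62 in WT and 402, 567 and 416 in KD, and the steepest rise among the TRIM genes tested, 2.90 (SE 0.19, adjusted p = 5.83e-16). For Trim30b the counts were 0 in every WT library and 1, 5 and 0 in KD, too few to be tested.

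Trim12c, a rodent relative of Trim5, had 894, 659 and 799 counts in WT and 2038, 2080 and 2033 in KD, and its log2 fold change was 1.39 (SE 0.08, adjusted p = 9.55e-18). Its copy Trim12a stayed near the limit of detection, with 3, 0 and 0 counts in WT and 6, 12 and 9 in KD, and was called higher only where low counts were not filtered (adjusted p = 0.0324) and by DESeq2 (adjusted p = 0.0388). Trim34b rose from 8.12 ± 0.731 to 20.8 ± 1.54 CPM (log2 fold change 1.36, SE 0.10), and Trim34a from 3.87 ± 0.855 to 8.75 ± 1.66 CPM (1.18, SE 0.17, adjusted p = 1.85e-07). With the Trim30 genes, these were the 6 tested members that have no human symbol of their own. All 6 were called higher, beside 10.2% of all genes tested. The same 6 also stand in the interferon-inducible list, so this count repeats part of that list's result.

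Trim21, a cytosolic receptor for antibody-coated virus, had 594, 570 and 620 counts in WT and 1425, 1356 and 1218 in KD, and was the interferon-inducible member with a human namesake that passed a fold change of 2 (log2 fold change 1.16, SE 0.08, adjusted p = 2.08e-15). The other 4 that passed the adjusted p stayed under that fold. Trim25, the ligase that places ubiquitin chains on RIG-I, had 7055, 6806 and 6895 counts in WT and 10793, 10343 and 10243 in KD, a log2 fold change of 0.59 (SE 0.04). Trim26, a ligase encoded in the MHC region in human, rose by 0.84, from 37.9 ± 1.51 to 68.0 ± 3.44 CPM. Trim14, which lacks a RING domain and acts as an adaptor at the mitochondrial protein MAVS, rose by 0.82, from 24.7 ± 2.35 to 43.7 ± 4.2 CPM. Trim56, a ligase linked to STING signalling, rose by 0.48, from 48.7 ± 3.13 to 68.1 ± 2.71 CPM. All of these had KD libraries wholly above the WT libraries.

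Trim69 did not follow them. It had 20, 35 and 24 counts in WT and 39, 9 and 30 in KD, so that the groups overlapped, and the 95% interval of its log2 fold change ran from −0.99 to 0.93. Trim5, the retroviral restriction factor, had 7, 3 and 0 counts in WT and 7, 13 and 21 in KD. Trim38 had 0 counts in every WT library and 1, 0 and 4 in KD. For Trim38 in WT, a count of 0 allows up to 3 counts in a library (0.0794 to 0.0796 CPM, counting error only), and a difference was not detectable at this depth. Trim5 was called higher without WT replicate 1 (log2 fold change 3.09, adjusted p = 0.00997) and without KD replicate 1 (2.33, adjusted p = 0.0147). It did not pass without WT replicate 2 (adjusted p = 0.0639), without WT replicate 3 (adjusted p = 0.126) or with no low-count filter (adjusted p = 0.0542).

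Interferon acts on promoters through the interferon-stimulated response element, whose core is a pair of GAAA repeats with 2 bases between them (on the other strand TTTC, 2 bases, TTTC). RefSeq promoters of human namesakes (GRCh38.p14, 300 bases each, from 250 before to 50 after the gene start) were found for 38 of the 58 genes, and for 8 of the interferon-inducible list. The core stood in 8 of the 38 (21.1%) and in 5 of these 8 interferon-inducible genes, against 3.57% of all 35116 promoters. The matches in the 5 promoters are shown because they belong to genes that rose (TRIM14, TRIM21, TRIM26), did not differ detectably (TRIM69) or had too few counts (TRIM5). Capitals mark the core, which occurs in a pair of overlapping copies in TRIM21 and TRIM26, and each sequence runs 5′ to 3′ on the gene's own strand.
TRIM14 (chr9:98119229-98119258, minus strand, match 26 bases before the gene start): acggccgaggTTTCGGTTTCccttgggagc
TRIM21 (chr11:4393663-4393692, minus strand, 17 bases after the start): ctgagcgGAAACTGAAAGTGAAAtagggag
TRIM26 (chr6:30213578-30213607, minus strand, 194 bases before): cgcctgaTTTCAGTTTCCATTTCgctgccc
TRIM5 (chr11:5685082-5685111, minus strand, 27 bases before): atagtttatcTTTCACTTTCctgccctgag
TRIM69 (chr15:44736456-44736485, plus strand, 62 bases before): ctaatgagggTTTCTCTTTCtcttaagcaa

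The other 3 matches were in TRIM2, TRIM16 and TRIM44, whose log2 fold changes under those names were −0.07, 0.84 and 0.50. Of the namesakes with a promoter, 12 had risen past the adjusted p and 5 of them held the core, 8 had fallen and 0 held it, and 10 had not passed and 2 held it. The gamma-activated site, TTC and GAA with 3 bases between them, which reads alike on both strands, stood in 5 of the 38 promoters (13.2%), against 7.66% of all promoters, and in 0 of the 8 interferon-inducible genes. These are matches of letters in human promoters. They are not the promoters of the counted genes if those are mouse genes, and promoters of the rodent-named genes were not used here.

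Beyond the interferon-inducible list, several abundant B30.2/SPRY members rose by less than 2-fold. Trim47 came closest, with 3023, 3233 and 3098 counts in WT and 6315, 5472 and 6376 in KD, a log2 fold change of 0.95 (SE 0.05, adjusted p = 1.47e-19). Trim65, a ligase of the sensor MDA5, rose from 19.2 ± 2.46 to 35.0 ± 1.23 CPM (0.87, SE 0.08). Trim16, which lacks a RING domain and takes part in autophagy of damaged membranes, rose from 47.8 ± 1.65 to 85.8 ± 3.18 CPM (0.84, SE 0.05). Trim27 (0.72), Trim11 (0.64) and Trim35 (0.32) also rose. Outside the interferon-inducible list, 6 of 14 tested B30.2/SPRY genes were higher (42.9%) and 3 lower (21.4%), beside 36.7% of all genes each way, and within it 10 of 11 were higher and 0 lower.

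By the order of protein-coding genes in RefSeq (GRCh38.p14), TRIM47 is next to TRIM65, and the genes of those names rose by 0.95 and 0.87 on the log2 scale. TRIM26 is next to TRIM39, but Trim39 had 1066, 962 and 1037 counts in WT and 1045, 1096 and 1067 in KD, and the 95% interval of its change ran from −0.08 to 0.21. TRIM6 lies between TRIM5 and TRIM34, and Trim6 had 169, 130 and 137 counts in WT and 152, 182 and 186 in KD, overlapping groups with an interval from −0.11 to 0.62, while Trim34a and Trim34b rose. TRIM7 is next to TRIM41, and the log2 fold changes under those names were −0.11 (interval −0.55 to 0.33) and −0.17 (−0.28 to −0.07). Differences between neighbours were not tested.

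**Figure D2:**
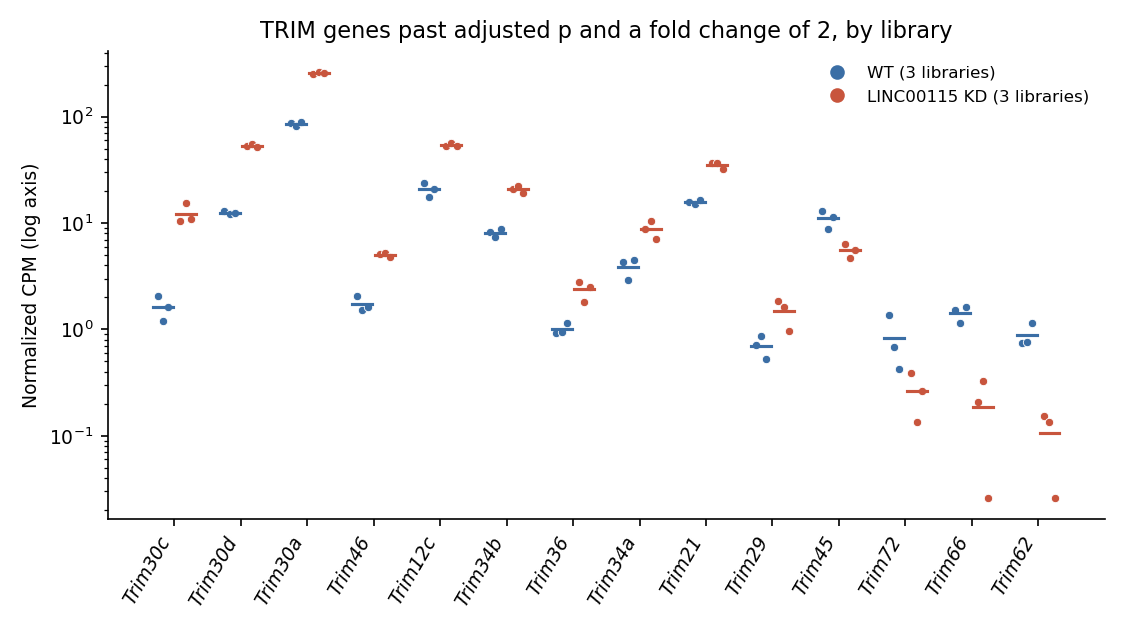
Normalized CPM (log axis) of the 14 TRIM genes past an adjusted p of 0.05 and a fold change of 2, with 1 point per library and a line at each group's mean. The 10 genes on the left lie higher in every KD library and the 4 on the right lower, and the lowest KD points of Trim62 and Trim66 stand for 1 count each.

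Among the microtubule-binding members with a COS box, Trim46, which bundles microtubules at the start of the axon, had 78, 58 and 61 counts in WT and 198, 190 and 183 in KD. It rose by 1.53 on the log2 scale (SE 0.22, adjusted p = 1.03e-07). Trim36, a ligase studied in sperm and the cell cycle, had 35, 36 and 44 counts in WT and 108, 67 and 96 in KD (1.23, SE 0.32, adjusted p = 0.000821). Both kept apart between the groups, at few counts. Trim54, known from the sarcomere, had 69, 46 and 48 counts in WT and 57, 29 and 38 in KD, which overlapped (adjusted p = 0.327). Trim9, Trim55, Trim63 and Trim67 had at most 7 counts in any library.

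Of 4 tested members whose C-terminal part holds no further domain, 3 were higher at the adjusted p, among them Trim56, and 1 was lower, beside 36.7% of all genes each way. Trim44, which lacks a RING domain and carries a ubiquitin-protease type zinc finger, had 7678, 8198 and 7720 counts in WT and 11420, 10886 and 11138 in KD, more than any other TRIM gene in every library, and rose by 0.50 (SE 0.04, adjusted p = 9.54e-15). Trim29, an epithelial member without a RING, had 27, 33 and 20 counts in WT and 72, 60 and 37 in KD and was called higher (1.07, SE 0.39, adjusted p = 0.0153). That call rested on single libraries: without WT replicate 3, KD replicate 1 or KD replicate 2 the adjusted p was 0.0729, 0.0920 and 0.0505. Trim8, a regulator of cytokine signalling, fell by 0.10 on the log2 scale, from 132 ± 6.23 to 123 ± 2.72 CPM (adjusted p = 0.0319). It did not pass by DESeq2 (adjusted p = 0.0795). With a single library left out, Trim8 passed only without WT replicate 1 (adjusted p = 0.00401), and the others gave 0.0611 to 0.213.

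The 4 genes called lower had few counts, except Trim45. Trim62, a ligase linked to epithelial polarity in the mammary gland, had 28, 29 and 43 counts in WT and 6, 5 and 1 in KD, a log2 fold change of −3.02 (SE 0.61, adjusted p = 4.02e-05). Trim66, a chromatin reader with a PHD finger and a bromodomain, had 57, 43 and 61 counts in WT and 8, 12 and 1 in KD (−2.91, SE 0.54, adjusted p = 1.14e-05). Both genes stood under 15 counts in every KD library, with no overlap with WT.

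Trim72, which helps to reseal the membrane of muscle cells, had 52, 26 and 16 counts in WT and 15, 5 and 10 in KD (−1.64, SE 0.55, adjusted p = 0.00816). Its lowest WT library and its highest KD library almost met, and the adjusted p was 0.154 without WT replicate 1 and 0.0587 without KD replicate 2. Trim45, the member with a filamin-type domain, had 494, 335 and 434 counts in WT and 246, 174 and 212 in KD. Its log2 fold change of −1.003 (SE 0.14, adjusted p = 1.47e-07) lay at the threshold of 2-fold, and it was −0.9959 with DESeq2's size factors, −0.9986 with the replicate number as a block and −0.8709 without WT replicate 1.

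Abundant members of other classes fell by smaller amounts or did not pass. Trim32, a ligase with NHL repeats that is mutated in a limb-girdle muscular dystrophy, had 1434, 1407 and 1410 counts in WT and 1098, 977 and 934 in KD and fell by 0.50 on the log2 scale (SE 0.07, adjusted p = 5.30e-08). Trim23, which carries an ARF-type GTPase domain, fell by 0.44, the membrane-anchored Trim59 by 0.41 and the NHL member Trim3 by 0.34. These 4 had KD libraries wholly below WT. Trim37, a centrosome regulator, rose by 0.16 (adjusted p = 0.00296).

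The chromatin readers Trim24, a partner of nuclear receptors and p53, and Trim33, a partner of SMAD proteins, did not differ detectably. Trim24 had 1518, 1280 and 1341 counts in WT and 1317, 1264 and 1378 in KD, with an interval of the log2 fold change from −0.20 to 0.07. Trim33 had 3466, 3271 and 3152 counts in WT and 3435, 3407 and 3513 in KD, with an interval from −0.03 to 0.16. At these counts a change of 2-fold in either gene lies outside the interval. Trim2 (−0.26 to 0.13), Trim13 (−0.36 to 0.41), Trim68 (−0.62 to 0.22), Trim71 (−0.30 to 0.87) and Trim17 (−0.28 to 1.59) also overlapped between the groups. The interval of Trim17, a gene with few counts, includes a 2-fold rise.

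The 14 members not tested had at most 21 counts in any library, and 3 of them had at most 3. Besides Trim5, Trim9, Trim12a, Trim30b, Trim38, Trim55, Trim63 and Trim67 they were Trim10, Trim15, Trim40, Trim43a, Trim43b and Trim43c. Trim12a and Trim43c (1, 0 and 1 counts in WT, 15, 2 and 3 in KD) had more counts in every KD library than in any WT library. Of all genes tested, 37.8% showed this order. The 2 and 3 counts of Trim43c lie within the 3 counts that a 0 allows. Trim43c was not called by edgeR without the low-count filter (adjusted p = 0.0673) or by DESeq2 (adjusted p = 0.0748). Trim67 had 7, 1 and 1 counts in WT and 0, 0 and 1 in KD, so that the groups met at 1 count.

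Of 4 TRIM proteins that go by other names, Pml, the scaffold of nuclear bodies, rose from 89.6 ± 2.59 to 123 ± 5.92 CPM (log2 fold change 0.45, adjusted p = 3.99e-11). Mid2, a microtubule-binding ligase, was called higher from 0, 0 and 1 counts in WT to 16, 25 and 44 in KD. It entered the test only through its counts in KD. Its paralog Mid1 did not pass (0.10, adjusted p = 0.642). Mefv, the inflammasome protein pyrin, had too few counts.

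Of 21 tested genes for ubiquitin and for the E1 and E2 enzymes that hand it to ligases, 9 passed the adjusted p upward (42.9%) and 5 downward (23.8%), beside 36.7% of all genes each way, with a median log2 fold change of 0.08. Only 2 were called higher (9.52%), a share near the 10.2% of all genes tested. These were Uba7 (13.1 ± 0.731 to 60.4 ± 3.52 CPM, log2 fold change 2.20) and Ube2l6 (53.6 ± 3.10 to 183 ± 6.88 CPM, 1.77), the E1 and E2 enzymes of the ubiquitin-like protein ISG15. Ube2n and Ube2v1, whose pair builds K63-linked chains with TRIM ligases, rose by 0.16 and 0.27, Ube2d3 by 0.26, and Ube2d1 fell by 0.51 on the log2 scale.

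Among the sensors and adaptors that TRIM ligases modify, 11 of 20 tested genes passed the adjusted p upward (55.0%) and 6 downward (30%), beside 36.7% of all genes each way. Called higher were Irf7 (71.5 ± 2.09 to 454 ± 12.1 CPM, 2.67), Dhx58 (2.27), Ifih1, the gene of MDA5 (2.23), and Cgas (1.45). Ddx58, the gene of RIG-I and the substrate of Trim25, rose by 0.98, from 182 ± 6.74 to 359 ± 3.8 CPM, just under the fold threshold. Ikbke was called lower (−1.11), and Sting1 and Irf3 fell by 0.57 and 0.41 on the log2 scale. Of the proteins that Trim30 acts on, Tab3 fell by 0.25 and Tab2 did not pass (adjusted p = 0.284).

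In interferon receptor signalling, 8 of 15 tested genes passed the adjusted p upward (53.3%) and 7 downward (46.7%), against the same 36.7%. Among those called higher were Usp18 (59.4 ± 2.91 to 296 ± 0.816 CPM, 2.32), Stat2 (2.11), Socs1 (1.15) and Irf9 (1.04), and Tyk2 was called lower (−1.30). Of the receptor chains of type I interferon, Ifnar1 fell by 0.54 on the log2 scale and Ifnar2 rose by 0.27, and the kinases Jak1 and Jak2 fell by 0.28 and 0.59.

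The summed CPM of lung, kidney and leukocyte markers was higher in KD, and that of striated muscle markers overlapped between the groups. The 11 lung genes listed summed to 1.73 to 2.12 CPM in the WT libraries and 75.2 to 86.5 CPM in KD. Of these, 11 of 11 were over 3 counts and above WT in every KD library. Of all genes tested, 37.8% lay above WT in every KD library, counted without the limit of 3 counts. The 11 kidney genes summed to 16.8 to 19.6 CPM in WT and 41.0 to 45.2 CPM in KD, with 7 of 11 over 3 counts and above WT in every KD library. The 12 leukocyte genes listed in the table summed to 71.9 to 86.0 CPM in WT and 144 to 160 CPM in KD, with 4 of 12 higher by that measure, beside the same 37.8%. Most of that sum was Cd68 and S100a8 (42.8 ± 7.38 and 33.0 ± 1.25 CPM in WT, 47.2 ± 2.25 and 95.2 ± 6.33 CPM in KD), and the other genes higher by that measure were Lyz2 (0.795 ± 0.626 to 6.58 ± 0.199 CPM), Cd74 (0.928 ± 0.254 to 3.27 ± 0.708 CPM) and S100a9 (0, 0 and 2 counts in WT, 50, 68 and 48 in KD). The leukocyte-defining Ptprc stood at 0.194 ± 0.107 and 0.255 ± 0.0704 CPM and Cd3e at 0 counts in every library. For 15 striated muscle genes the sum was 14.6 to 15.4 CPM in WT and 14.4 to 17.9 CPM in KD. The part of these cells' RNA in the TRIM values was not tested.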

How the data were processed

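RNA-seq of 6 libraries was used. The authors trimmed adapters and mapped reads with HISAT2 at default settings (hg19 in the paper, hg38 in the submitters' processing notes, which also name featureCounts and DESeq2), and deposited raw counts for 22989 genes. Neither annotation nor strand setting is given in the sources used here. Kits differ between the paper (RNeasy Plus, NEBNext Ultra) and the labels (TRIzol, SMARTER). Columns were matched to samples by the description in the labels.

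The test was edgeR 4.0.16 under R 4.3.3, with filterByExpr (minimum count 10, minimum total count 15), TMM, the quasi-likelihood test on group alone and Benjamini-Hochberg adjustment over 13497 genes. A gene was called at an adjusted p under 0.05 with a fold change over 2, following the study's methods. The standard error is the log2 fold change divided by the root of F, and 95% intervals span 1.96 standard errors on each side. Counts were also drawn from the real means, with a log2 change of 2 up or down planted in 200 genes that passed the filter. Of these 200 genes 195 were called, with 2 unchanged genes. Recovery of changes near the fold threshold was not tested. The alternatives were 3 other scalings, 2 other filters, DESeq2 1.42.0, a replicate block, glmTreat against a fold change of 1.5, and leaving out each library.

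The members, gene lists and tests were chosen with earlier results of these data known. Named were all TRIM genes called, the tested interferon-inducible members, the 5 with the highest CPM and called genes of partner lists; others were named after their values were seen. Domain classes and lists were written by hand from textbook knowledge. Promoters are RefSeq's (GRCh38.p14), matched by symbol apart from case. LINC00115 itself was not analysed here, so the group labels were not checked against it. A gene counted in the lists is not reported here by name.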

Additional observations from a re-analysis of the deposited data

How the results depend on the processing

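The number of TRIM genes called higher (10) lay between 9 and 11 in all alternatives except the test against a fold change of 1.5, which gave 15. The number called lower (4) was 1 with at least 10 counts required in every sample, since that filter removes Trim62, Trim66 and Trim72. With 1 library left out it ranged from 2 to 4, and it was 2 without WT replicate 1 and without KD replicate 2. The same filter left 903 of all genes called higher (1381 before). With the adjusted p alone, 21 to 24 TRIM genes were higher and 7 to 10 lower in the alternatives other than the test against 1.5-fold. Of 22 named TRIM genes, 16 kept their direction and stayed called or not called in every alternative that gave a value. With 1 library left out, Trim69 ranged from −0.42 to 0.37 and turned its direction without WT replicate 2 (0.23) and without KD replicate 2 (0.37), and was past the threshold in no alternative. Trim29, Trim45 and Trim72 lost their call in 4, 7 and 2 alternatives, and Trim14 and Trim26 gained one in the test against 1.5-fold. The median log2 fold change of all genes lay between −0.047 and 0.001 under the 4 scalings.

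With the replicate number as a block, 10 TRIM genes were called higher and 3 lower, the difference being Trim45. Deviations of same-numbered libraries did not correlate (r = 0.0041, −0.0178 and −0.0175 across genes), so the numbers were not taken to pair the libraries. Groups of 3 were too small to look for outlying samples.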
